A study of Mus musculus with 4 samples.

Results

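Stem and progenitor cells of mouse bone marrow that carried transcripts of the MHC class II genes H2-Aa, H2-Ab1 and H2-Eb1 were examined in 4 pools of single cells. A cell was counted as a member if it held at least 1 unique molecular identifier (UMI, one captured transcript) of 2 or more of these 3 genes. This gave 4883 members among 14915 kept cells (32.7%). The cells were C57BL/6-CD45.2 hematopoietic stem and progenitor cells (HSPCs) of male mice, sorted as lineage-depleted, Sca-1-positive, cKit-positive and Flt3-negative cells. Young mice were 2 to 3 months old and aged mice 17 to 18 months. For each age 1 pool was captured and sequenced on platform A (HalioDX) and 1 on platform B (TGML). By the study's methods young B and aged A had more reads per cell than young A and aged B. The more deeply read pool was thus the aged one on platform A and the young one on platform B. No treatment or mutation set the groups apart. A pool mixed the cells of several mice and was the unit of replication, so the spread between mice was not seen. By the study's methods the pools of one age came from different mice in separate batches, with batch and platform coinciding. P-values for members against other cells, and for the difference of their age changes, measure the spread of the member minus other difference over pools. Those for age within a class measure the spread of the age change over platforms A and B. Permutation tests of shares compare the 4 pools themselves. Part of any of these spreads may be technical. The title and the free-text description disagree on the age of 2 pools, B of the young and A of the aged, and the title was followed, which the study's methods match. The pools shared 103 kept barcodes over their 6 pairs, 7 of them members in both. Sets of 4 values below run from young A and young B to aged A and aged B.

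MHC class II molecules are pairs of an alpha and a beta chain that carry peptides from endocytosed proteins to the surface, where CD4 T cells read them. H2-Aa and H2-Ab1 encode the chains of I-A, and H2-Eb1 encodes the beta chain of I-E, for which C57BL/6 mice lack a functional alpha chain gene. The invariant chain Cd74 escorts the new pair, H2-DM exchanges its peptide and H2-O restrains H2-DM. The coactivator Ciita switches these genes on together, through proteins of the RFX, CREB and NF-Y families bound at their promoters. Dendritic cells, B cells and macrophages carry the molecules at high levels, and interferon-gamma induces them in many other cells.

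The promoters of H2-Aa and H2-Eb1 are shown because 2 of the genes that chose the cells share one arrangement of short motifs there. Capitals mark GCAAC and CTGATTGG, the latter holding the ATTGG core that NF-Y binds. Both are RefSeq sequences on GRCm38.p6, at chr17:34287774-34288073 on the minus strand for H2-Aa and chr17:34305617-34305916 on the plus strand for H2-Eb1.
H2-Aa: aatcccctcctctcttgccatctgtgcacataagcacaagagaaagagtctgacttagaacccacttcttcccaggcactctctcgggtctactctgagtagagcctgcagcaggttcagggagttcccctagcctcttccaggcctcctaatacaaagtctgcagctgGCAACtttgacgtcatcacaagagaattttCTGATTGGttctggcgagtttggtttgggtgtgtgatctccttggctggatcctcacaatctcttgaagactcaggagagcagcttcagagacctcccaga
H2-Eb1: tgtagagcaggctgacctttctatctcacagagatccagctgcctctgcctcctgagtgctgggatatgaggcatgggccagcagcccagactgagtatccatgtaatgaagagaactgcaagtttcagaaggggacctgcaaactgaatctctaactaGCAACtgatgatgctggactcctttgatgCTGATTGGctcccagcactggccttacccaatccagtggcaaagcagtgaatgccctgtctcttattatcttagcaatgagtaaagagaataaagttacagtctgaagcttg

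In H2-Aa 25 bases and in H2-Eb1 24 bases lay between the motifs. GCAAC followed after 20 to 30 bases by CTGATTGG, on either strand, was held by 22 of 32851 promoters of this length (0.0670%), among them those of H2-Aa, H2-Eb1, H2-Oa and H2-Eb2. The promoters of H2-DMa, H2-DMb1, H2-DMb2 and H2-Ob did not hold the pair. CTGATTGG alone was held by 1346 (4.10%). The motif pair was chosen after these sequences had been read, and a match is a description of letters. The genes lie in one stretch of chromosome 17 on GRCm38, H2-Ab1 at 34257689 to 34269419, H2-Aa at 34282744 to 34287823 and H2-Eb1 at 34305867 to 34316674.

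The cells were selected on the UMIs of these genes, so their levels are given as a description. H2-Aa stood at 299, 313, 366 and 394 CPM (UMIs per 1000000 UMIs) in the members. H2-Ab1 stood at 237, 272, 300.1 and 332 CPM. H2-Eb1 stood at 119, 139, 187 and 233 CPM. For all 3 genes the members of both aged pools lay above those of both young pools. A median member held 3, 4, 4 and 6 UMIs of the genes together. The highest member held 220 (aged B). All 3 genes were seen in 31.7%, 39.2%, 43.5% and 60.8% of members. H2-Eb1 was the chain most often missing.

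Other cells were those with a UMI of no more than 1 of the genes, and they were not free of these transcripts. The members held 66.6%, 76.8%, 83.8% and 94.4% of all UMIs of the 3 genes. H2-Ab1 had a UMI in 15.4% to 23.6% of other cells of a pool. At the border of the rule, 1208, 580, 977 and 856 cells held 1 gene (just outside) and 416, 298, 680 and 1013 cells held 2 (just inside). Their median depth was 6791, 6839.5, 5741 and 6375 UMIs outside and 6515, 6494.5, 5771 and 6719 UMIs inside.

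Cd74, which the rule did not use, rose with the number of MHC class II genes seen. After every cell was thinned to 3000 UMIs, Cd74 was seen in 8.9%, 13.6%, 23.2% and 26.5% of cells with none of the genes. With 1 gene it was seen in 28.0%, 34.4%, 44.8% and 50.4%, and with 2 genes in 61.4%, 66.0%, 71.5% and 69.7%. With all 3 it was seen in 83.3%, 81.4%, 83.7% and 87.2%. The order held in each pool. Cd48, a surface marker used to separate stem cells from more mature progenitors, ran the other way. It was seen in 14.2%, 14.5%, 8.0% and 3.6% of cells with none of the genes and in 7.0%, 6.9%, 1.5% and 1.1% of cells with 2. These shares count cells with a UMI and compare cells of one pool, with no test.

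**Figure D1:**
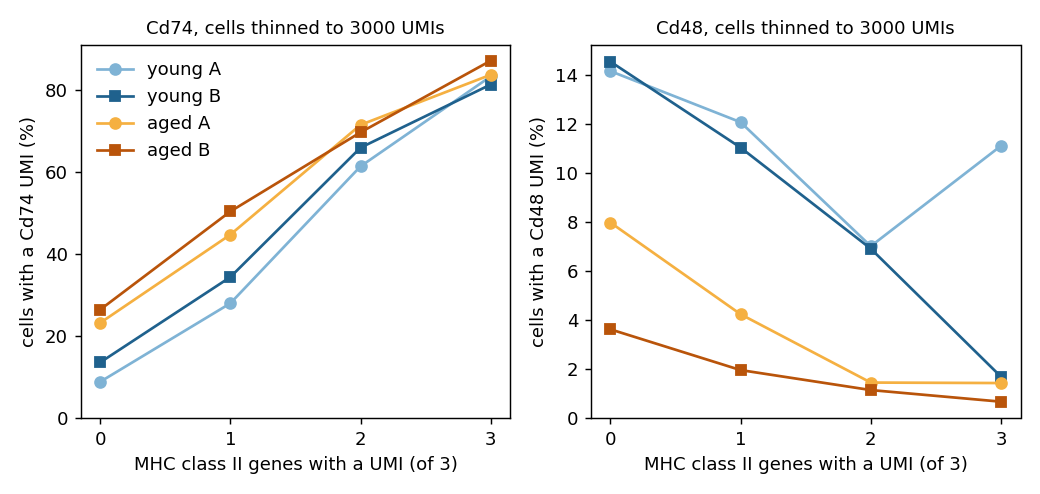
Share of cells with a UMI of Cd74 (left) and of Cd48 (right) against the number of the 3 MHC class II genes seen, in cells thinned to 3000 UMIs, with 1 line per pool. Cd74 climbs from between 8.9% and 26.5% to between 81.4% and 87.2% in every pool, while Cd48 is lower with 2 genes than with none in every pool, and the 54 cells of young pool A with 3 genes stand at 11.1%.

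Members were more frequent in each aged pool than in either young pool. They made up 609 of 5189 kept cells of young A (11.7%, exact 95% binomial interval 10.9% to 12.6%) and 490 of 2244 of young B (21.8%, 20.1% to 23.6%). For aged A it was 1203 of 3328 (36.1%, 34.5% to 37.8%) and for aged B 2581 of 4154 (62.1%, 60.6% to 63.6%). The aged share was 3.08 times the young share on platform A and 2.85 times on platform B, with a mean difference of 32.4 percentage points. Platform B stood above platform A by 10.1 points in young and by 26.0 points in aged cells. An exact two-sided permutation test over the 4 pools gave p = 0.33, which is the smallest p that 2 pools against 2 can give. The intervals cover counting error only.

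A deeper cell meets the rule more easily. Members had a median of 6647, 6529, 5984 and 7185 UMIs and other cells 6001.5, 6192, 5504 and 6172. Of the deepest of 10 equal groups of kept cells 17.3%, 26.7%, 50.5% and 82.0% were members in turn. With every cell thinned to 3000 UMIs, which left out 0, 50, 176 and 4 shallower cells, the shares were 5.43%, 11.3%, 21.9% and 37.3%. Their order was the same, with the aged share 4.03 times the young share on platform A and 3.32 times on platform B (exact permutation p = 0.33). Doublets were not called, and what part they have in the members was not tested.

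Free RNA can give a UMI to a cell that does not express the gene. Cells with UMIs of at least 4 of 11 erythroid genes served as a rough measure of this. It is rough because these cells may express the genes themselves, which was not tested. At 3000 UMIs per cell 3 of 161 (1.86%), 0 of 49, 3 of 94 (3.19%) and 3 of 55 (5.45%) of these cells were members. Their median depth before thinning was 7242, 10478, 6294.5 and 6463 UMIs, against 6037, 6324, 5790.5 and 6727 in the rest of the pool. The exact upper bound lay below the share of the whole pool in each pool, at 5.35%, 7.25%, 9.04% and 15.1%. For H2-Ab1 alone the distance was small in young pool A, where 9.94% of the erythroid group (interval 5.79% to 15.6%) and 12.5% of the rest had a UMI. In aged pool A these shares were 12.8% and 30.7%. In young B these shares were 12.2% (interval 4.63% to 24.8%) and 19.2%. In aged B 11 of 55 erythroid cells had a UMI (interval 10.4% to 33.0%), the highest share of the 4 pools, against 42.1% of the rest. The share of the rest thus lay inside the interval of the erythroid group for H2-Ab1 in both young pools, and also for H2-Eb1 in young A (4.63%, interval 0.386% to 5.35%). H2-Aa was seen in 2.48%, 0%, 4.26% and 9.09% of the erythroid group, below H2-Ab1 in each pool. In the rest it was seen in 11.6%, 19.0%, 31.3% and 45.3%, close to H2-Ab1. Cd74 was seen in 3.11%, 6.12%, 6.38% and 5.45% of the erythroid group and in 15.5%, 24.7%, 41.8% and 52.8% of the rest.

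**Figure D2:**
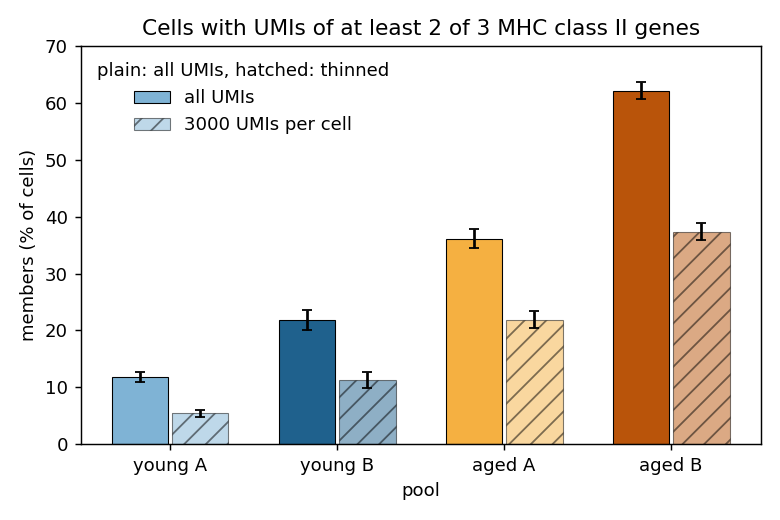
Members as a share of kept cells in each pool, in percent, with all UMIs (plain bars) and with every cell thinned to 3000 UMIs (hatched bars). Error bars are exact 95% binomial intervals, and the aged pools (36.1% and 62.1%) stand above the young pools (11.7% and 21.8%) with and without thinning.

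The transcripts of the surface proteins used in the sort were read first. Kit stood at 86.7, 75.1, 171 and 72.4 CPM in members and at 101, 74.9, 160 and 70.1 CPM in other cells (log2 fold change -0.01 ± 0.05 SE, adjusted p = 0.93). Ly6a, which encodes Sca-1, stood at 234, 322, 285 and 399 CPM in members and at 153, 233, 199 and 267 CPM in other cells. It was higher in members in all 4 pools (0.54 ± 0.04, adjusted p = 4.7e-08). Flt3, the receptor that the sorted cells were to lack, stood at 43.9, 16.0, 12.2 and 2.3 CPM in members and at 48.6, 14.7, 9.5 and 2.6 CPM in other cells, highest in young A, and did not pass the test (0.00 ± 0.09, adjusted p = 1.0). These and all further adjusted p values between groups are from edgeR's quasi-likelihood test with Benjamini-Hochberg adjustment on UMIs summed per pool. The 3 genes of the rule were left out, and pool was a block in the tests of members against other cells.

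Markers of the professional antigen-presenting cells were read in members and in other cells. Of 10 dendritic cell genes 2 were tested, with 0 called by edgeR or DESeq2 and 0 at an unadjusted p below 0.05, and 2 to 7 had no UMI in the members of a pool. The whole list summed to between 7.3 and 13.4 CPM, with Naaa as its most abundant gene, against 7.6 to 10.5 CPM in other cells. Itgax, which encodes CD11c, had no UMI in members of young B and aged A. At least 2 dendritic genes were held by 3, 0, 2 and 1 members (0.493%, 0%, 0.166% and 0.0387%) and by 0.175%, 0.285%, 0.0941% and 0.127% of other cells. Of 10 B cell genes 4 were tested, with 0 called by either tool and 0 at an unadjusted p below 0.05. The list summed to 56.0, 56.9, 72.3 and 53.1 CPM in members and to 54.4, 55.5, 50.8 and 53.2 CPM in other cells, with Cd79b as the most abundant gene (43.7, 52.6, 48.9 and 46.1 CPM in members). Pax5 had no UMI in members of any pool or in other cells of any pool but young A. At least 2 B cell genes were held by 1.64%, 1.02%, 2.58% and 0.736% of members and by 0.633%, 0.798%, 1.36% and 0.826% of other cells, so the share was higher in members of 3 pools.

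Of 10 macrophage and monocyte genes 7 were tested, with 0 called by either tool and 2 at an unadjusted p below 0.05. The list summed to 373, 435, 430 and 487 CPM in members and 345, 430, 404 and 467 CPM in other cells, most of it Lyz2 (0.06 ± 0.03, adjusted p = 0.36). Adgre1 had no UMI in members of both young pools or in other cells of young B and aged A. In aged A it was thus seen in members only. At least 2 of its genes were held by 12.6%, 15.1%, 9.48% and 12.9% of members and by 10.5%, 11.2%, 7.67% and 8.33% of other cells. Cells with 2 or more genes of the B cell, dendritic, macrophage and monocyte or T and NK lists held 19.2%, 18.3%, 14.4% and 18.5% of the UMIs of the 3 MHC class II genes and made up 12.6%, 14.1%, 11.8% and 14.6% of the kept cells. Without them the shares of members were 11.5%, 20.9%, 35.4% and 60.6%. Of 8 T and NK cell genes 3 were tested and 1 was called, Nkg7, the most abundant, which was lower in members (131, 146, 62.3 and 55.3 CPM against 211, 258, 118 and 129, log2 fold change -0.92 ± 0.06, adjusted p = 3.7e-08). Cd8a had no UMI in members of 3 pools or in other cells of both young pools. At least 2 T and NK cell genes were held by 0.328%, 2.04%, 2.33% and 3.49% of members and by 1.66%, 1.14%, 2.31% and 2.29% of other cells, a higher share in members of all pools but young A. Of 6 endothelial genes 3 were tested, with 0 called by either tool and 1 at an unadjusted p below 0.05. Emcn was the most abundant and Cdh5 had no UMI in members of 3 pools or in other cells of young B and aged B. What part cells of these types have in the results was not tested beyond leaving them out.

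Immunoglobulin transcripts set aged pool A apart. Cells with at least 2 of 8 plasma cell genes made up 84.5% of its kept cells against 5.51% and 1.92% in the young pools and 5.92% in aged pool B, and their share was alike in members (85.1%) and other cells (84.1%) of aged pool A. Igkc stood at 1927, 35.0, 4297 and 1081 CPM in members and at 139, 327, 2405 and 2856 CPM in other cells, with no common direction. Ighg2b, also an immunoglobulin gene, was called lower in members (-4.03 ± 0.55, adjusted p = 0.00025) but not with DESeq2, and its log2 fold change was 0.16 without cells of the B cell, dendritic, macrophage and T and NK lists. The summed plasma list ran from 48.1 CPM in members of young pool B to 5615 CPM in members of aged pool A. Its part in the results was not tested beyond leaving such cells out.

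Between members and other cells, 678 genes were called (5.5% of those tested). Of these, 261 genes were higher in members (2.12% of 12327 tested) and 417 were lower (3.38%). Genes of antigen presentation and interferon response were among the higher ones. Genes of erythroid, neutrophil and basophil differentiation were among the lower ones. Over all genes tested the median log2 fold change was 0.00. Members and other cells came from the same libraries, and the lists described here were chosen with earlier results of these data known.

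Most of the tested MHC class II partners were higher in members. Of 7 genes for chaperones and other chains 6 were tested, and 5 were higher in members and 0 lower, with a median log2 fold change of 0.50. Cd74 stood at 517, 587, 817 and 778 CPM in members and at 47.2, 77.5, 150.0 and 152 CPM in other cells. The groups did not overlap, with a 6.87-fold difference (log2 2.78 ± 0.12, adjusted p = 9.0e-11). H2-DMb1, a chain of the peptide exchange factor H2-DM, stood at 82.3, 95.6, 111 and 108 CPM in members and at 52.1, 59.3, 72.8 and 71.1 CPM in other cells. It was 1.55-fold higher (0.63 ± 0.04, adjusted p = 1.8e-08). H2-DMa, the other chain, was higher by 0.37 ± 0.04 (adjusted p = 1.1e-05) and H2-DMb2 by 1.13 ± 0.20 (adjusted p = 0.0021). These are modest next to Cd74.

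The H2-O pair did not move as one. H2-Oa was higher in members by 0.24 ± 0.05 (adjusted p = 0.0077), and this was lost with DESeq2, without aged pool B, with cycling cells left out and without cells of other types. H2-Ob stood at 13.4, 12.6, 4.7 and 5.2 CPM in members and 17.5, 19.4, 5.3 and 5.9 CPM in other cells (-0.37 ± 0.12, adjusted p = 0.080). It was lower in members in each pool, and it was called lower in UMI-matched cells (-0.51, adjusted p = 0.030) and without cells of other types (-0.48, adjusted p = 0.040). H2-Eb2, a second beta chain gene, had at most 1.0 CPM in any group and did not pass the filter on low counts.

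Of 13 regulators of MHC class II 12 were tested, and 4 were higher in members and 0 lower, with a median of -0.00. The count was 2 with DESeq2, with all 3 genes required, without cells of other types and without young pool A or aged pool A. It was 1 with cycling cells left out, and 4 where the plasma list was not used to leave cells out. Ciita, the class II coactivator, stood at 2.9, 2.4, 3.1 and 2.7 CPM in members and at 1.2, 1.3, 1.2 and 1.6 CPM in other cells. It was higher in members in every pool (1.05 ± 0.24, adjusted p = 0.011), from few UMIs. The call was lost with DESeq2, at 3000 UMIs per cell, with all 3 genes required, without cycling cells, without cells of other types and without young pool A or aged pool A (adjusted p 0.069 to 0.49). The interferon regulatory factors Irf1 (0.31 ± 0.04, adjusted p = 8.9e-05) and Irf2 (0.15 ± 0.04, adjusted p = 0.028) were higher too. The promoter-binding subunits Rfx5, Rfxank, Rfxap, Nfya, Nfyb, Nfyc and Creb1 lay between -0.12 and 0.19 with adjusted p of 0.32 to 0.92. March8, which directs class II molecules to degradation, stood at -0.18 ± 0.13 (adjusted p = 0.51), and March1 was too low to test, with at most 0.4 CPM.

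Of 16 interferon-gamma targets 14 were tested, all 14 had a positive log2 fold change, and 10 were called higher and 0 lower, with a median of 0.56. Gbp2, a guanylate-binding protein of cell-autonomous defence, stood at 66.8, 40.6, 79.7 and 46.0 CPM in members and 35.8, 31.3, 56.7 and 31.5 CPM in other cells (0.59 ± 0.06, adjusted p = 9.6e-06). Igtp, an immunity-related GTPase, stood at 52.4, 47.0, 58.7 and 82.1 CPM in members and at 31.1, 37.2, 40.8 and 61.7 CPM in other cells (0.50 ± 0.05, adjusted p = 1.1e-05). Gbp7 (0.29 ± 0.04, adjusted p = 0.00032) and the GTPase Ifi47 (0.21 ± 0.05, adjusted p = 0.015) moved less. For each of these genes, members lay above other cells in all 4 pools.

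Of 15 type I interferon targets 7 were higher and 0 lower, with a median of 0.23. Rtp4 (0.24 ± 0.05, adjusted p = 0.011), Oasl2 (0.21 ± 0.05, adjusted p = 0.018), Xaf1 (0.23 ± 0.06, adjusted p = 0.039) and Isg15 (0.24 ± 0.07, adjusted p = 0.047) were the most abundant called. The count was 3 with DESeq2, 1 without young pool A and 3 without aged pool B. Isg15 was not higher in members of young pool B (47.0 against 48.2 CPM).

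Of 14 genes of MHC class I presentation 10 were higher and 0 lower, with a median of 0.18, and 6 were higher with cycling cells left out. B2m, the light chain of class I, stood at 4384, 5358, 5397 and 5524 CPM in members and 3756, 4845, 4868 and 4962 CPM in other cells (0.16 ± 0.01, adjusted p = 6.1e-07). H2-K1 and H2-D1, the class I heavy chains, were higher by 0.19 ± 0.02 and 0.16 ± 0.02 (adjusted p = 3.5e-06 and 8.5e-05), and the immunoproteasome subunit Psmb8 by 0.12 ± 0.03 (adjusted p = 0.022). The H2-K1 and H2-D1 genes are close paralogs whose reads could be split in counting.

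Of 10 genes of lysosomal antigen processing 3 were higher and 0 lower (1 higher with DESeq2), with a median of 0.04. In UMI-matched cells, with all barcodes, with no filter on low counts and without young pool A, 1 was lower. The 3 higher ones were the proteases Ctss (0.61 ± 0.09, adjusted p = 0.00047), which trims the invariant chain, Ctsl (0.19 ± 0.04, adjusted p = 0.0063) and Ctsh (0.28 ± 0.07, adjusted p = 0.023). Ctss stood at 32.8, 32.9, 14.8 and 5.4 CPM in members against 20.4, 24.1, 7.8 and 4.3 CPM in other cells, higher in members of each pool while low in aged pools. Of the costimulatory and checkpoint ligands 6 of 8 were tested and 1 was higher, Pdcd1lg2 (0.49 ± 0.13, adjusted p = 0.035), which encodes the checkpoint ligand PD-L2 and was lost with DESeq2 and with any pool but aged B left out. With cycling cells or with cells of other types left out, 0 of 5 tested genes of the list were called. Where the plasma list was not used to leave cells out, 1 of 6 was called. Cd86, a costimulatory ligand, stood at 3.8, 6.7, 3.1 and 0.6 CPM in members and 6.4, 4.2, 1.6 and 0.9 CPM in other cells (0.06 ± 0.26, adjusted p = 0.95).

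Of 13 genes of HSC identity 5 were higher and 0 lower, with a median of 0.13. The median was 0.07 at 3000 UMIs per cell, with 4 called, and 0.02 with cycling cells left out, with 1 called. Besides Ly6a they were Procr, the surface receptor of activated protein C on stem cells, and the transcriptional regulators Hlf, Mllt3 and Mecom. Procr stood at 110, 141, 210.2 and 216 CPM in members against 94.4, 110, 172 and 170 CPM in other cells (0.30 ± 0.04, adjusted p = 7.6e-05). Hlf was higher by 0.25 ± 0.04 (adjusted p = 0.00090) and Mllt3 by 0.24 ± 0.04 (adjusted p = 0.00064). Of 10 tested megakaryocyte genes 1 was higher, while 3 were lower, Gp1bb, Itga2b and the platelet chemokine Pf4, the last at 123, 118, 91.3 and 205 CPM in members against 175, 189, 227 and 401 CPM in other cells (-0.88 ± 0.08, adjusted p = 2.3e-06). The list's median was -0.10. With cycling cells left out Pf4 turned to 0.10 and 0 genes of the list were called.

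Most tested erythroid, neutrophil, basophil and mast cell genes were lower in members. Of 11 erythroid genes 7 were lower and 0 higher, with a median of -1.15. Car2, a carbonic anhydrase and the most abundant gene of the list, was among those not called, at 1440, 1575, 1544 and 1698 CPM in members and 1392, 1497, 1460 and 1746 CPM in other cells (0.04 ± 0.02, adjusted p = 0.38). Car1, a carbonic anhydrase of early erythroid cells, stood at 42.4, 38.5, 41.4 and 3.2 CPM in members and 188, 114, 159 and 145 CPM in other cells (-2.67 ± 0.33, adjusted p = 4.6e-05). Gata1, the erythroid transcription factor, stood at -1.36 ± 0.13 (adjusted p = 2.7e-06), and Aqp1 and Blvrb stood at -1.15 and -0.26. Of 10 neutrophil genes 7 were lower and 0 higher, with a median of -2.03. With cycling cells left out 8 were tested and 5 were lower, with a median of -0.96. Mpo, the granule peroxidase, stood at 94.6, 51.0, 125 and 16.5 CPM in members and 342, 304, 327 and 185 CPM in other cells (-2.27 ± 0.20, adjusted p = 1.3e-06). Elane and Ctsg, granule proteases, stood at -2.59 ± 0.29 and -2.30 ± 0.21 (adjusted p = 1.5e-05 and 1.9e-06), and Ms4a3 at -1.99. Prtn3, the most abundant gene of the list, was not called. In each pool members lay below other cells for all of these called genes.

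Of 9 basophil and mast cell genes 7 were tested, and 6 were lower and 0 higher, with a median of -2.02. Prss34, a basophil protease, stood at 379, 204, 245 and 35.7 CPM in members and 1190, 1403, 592 and 924 CPM in other cells (-2.53 ± 0.35, adjusted p = 0.00013). The protease Mcpt8 stood at -2.30 ± 0.30 (adjusted p = 8.9e-05), Cpa3 at -1.95 ± 0.10 (adjusted p = 8.4e-10) and Fcer1a, a chain of the IgE receptor, at -2.75 ± 0.21 (adjusted p = 2.0e-07). Of 7 tested early lymphoid genes 1 was lower, Dntt (-1.08 ± 0.25, adjusted p = 0.013), the polymerase that adds bases at antigen receptor joints, and this was lost with DESeq2, without either young pool, with all 3 rule genes required, with all barcodes and in UMI-matched cells. At 3000 UMIs per cell, with cycling cells left out and with cells of other types left out Dntt was too low to be tested, but it was called where the plasma list was not used to leave cells out.

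Of 10 mitosis genes 9 were lower in members, with a median of -0.36, and Top2a, a topoisomerase of dividing cells, stood at 110, 92.4, 46.1 and 71.7 CPM in members and 137, 125, 69.8 and 75.2 CPM in other cells (-0.34 ± 0.06, adjusted p = 0.0022). The count was 3 with DESeq2, 4 without young pool B and 5 without young pool A. It was 3 without cells of other types (median -0.20) and 5 where the plasma list was not used to leave cells out (median -0.24). But it was 10 both at 3000 UMIs per cell (median -0.97) and in UMI-matched cells (median -0.85). Leaving out cycling cells selects cells by these same genes and by those of DNA replication, and is no test of them. Of 10 DNA replication genes 3 were lower, with a median of -0.08, namely Mcm5, Mcm6 and Rrm2, and 8 were lower at 3000 UMIs per cell (median -0.36) and in UMI-matched cells (median -0.29). The count was 0 without cells of other types (median -0.03), but 2 where the plasma list was not used to leave cells out (median -0.06). It was 1 with either aged pool left out and 2 with DESeq2. Of 10 immediate early genes 2 were higher (median 0.08), Dusp1 (0.27 ± 0.05, adjusted p = 0.0011) and Fosb (0.24 ± 0.06, adjusted p = 0.036), both known to answer to handling of cells, with 0 called at 3000 UMIs per cell. Fosb stood at 0.01 and was not called without aged pool A, and Dusp1 stood at -0.0034 and was not called with cycling cells left out.

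The number of calls depended on which cells were summed. Cells with UMIs of at least 2 replication or mitosis genes were 71.6%, 58.2%, 62.3% and 48.1% of members and 67.6%, 56.8%, 58.1% and 44.4% of other cells, counted over all UMIs, of which members held more per cell. At 3000 UMIs per cell the order was the other way, with members 3.0%, 3.2%, 11.6% and 24.9% of cells with at least 2 mitosis genes and 4.4%, 9.1%, 19.3% and 30.1% of those with at least 2 replication genes, against 5.43%, 11.3%, 21.9% and 37.3% of all cells. Without the cells with 2 such genes 30 genes were higher and 42 lower. The interferon-gamma list then had 6 higher genes, MHC class I 6, neutrophil 5 of 8 lower, erythroid 3 of 7 and basophil and mast cell 6 of 6, while HSC identity, class II regulators and type I interferon targets had 1 each and the lysosomal list 0. With equal numbers of members and other cells drawn from each of 10 ranges of UMI count, 418 genes were higher and 742 lower, and these included 592 of the 678 calls with the same direction.

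**Figure D3:**
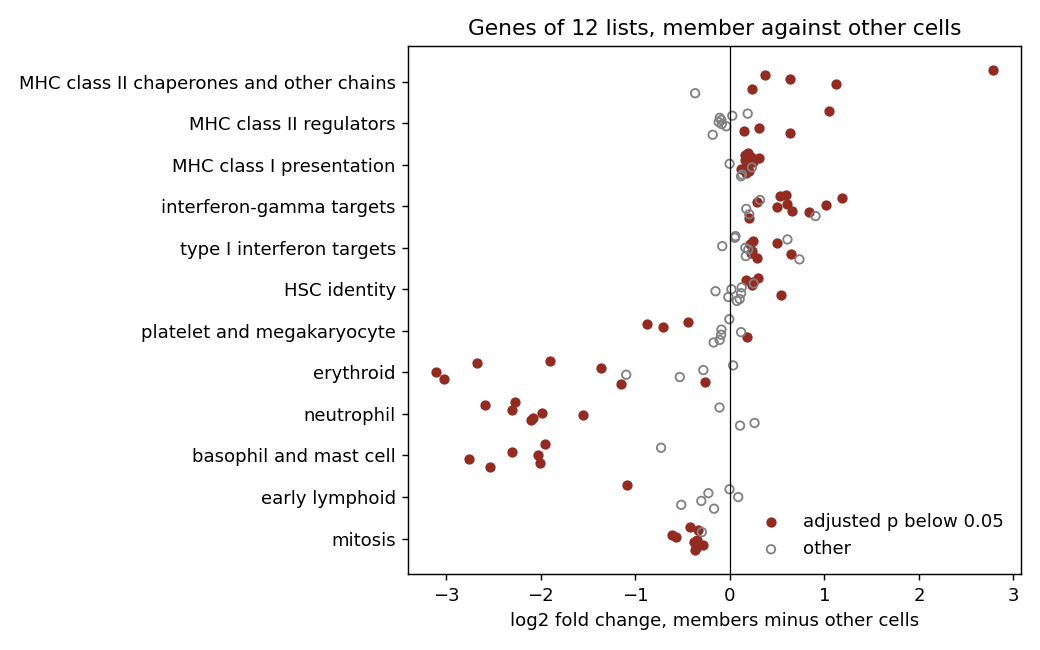
Log2 fold change of members against other cells for each tested gene of 12 lists, with filled points for genes with an adjusted p below 0.05 and open points for the rest. The interferon-gamma targets all lie to the right of 0 (median 0.56), and the erythroid, neutrophil and basophil and mast cell lists lie mostly to the left (medians -1.15, -2.03 and -2.02).

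By size of change among calls that moved the same way in all 4 pools and were also called in UMI-matched cells, Cd74 led the higher genes. Skint3 (1.24 ± 0.18, adjusted p = 0.00026), Gbp4 (1.19 ± 0.16, adjusted p = 0.00012), H2-DMb2 and Gbp6 (1.13 ± 0.25, adjusted p = 0.010) came next. Gbp6 carries 2 identifiers in the files, and the value is of ENSMUSG00000104713. Ciita, Gbp9, Serpina3f, Slamf8 and the unnamed gene CR974586.5 had log2 fold changes between 0.89 and 1.05. Gbp4, Gbp6 and Gbp9 are guanylate-binding proteins, and all but Cd74 and Serpina3f stood under 12 CPM in every group. On the lower side were the haemoglobin genes Hba-a2, Hba-a1 and Hbb-bs and the erythroid genes Ermap and Tspo2, with F13a1, Rec114, Ccl17 and Fcer1a. Hba-a1 stood at 2.5, 4.8, 3.7 and 1.8 CPM in members and at 6.95, 331, 36.7 and 176 CPM in other cells (-5.66 ± 0.30, adjusted p = 1.6e-09), so the other cells of the pools differed widely. The 2 haemoglobin alpha genes are near-identical copies, and their split is uncertain.

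The share of members differed between marker-defined cells of the same pool. The requirement of 4 genes of a list was chosen after the data had been seen, since 2 genes were met by most cells for some lists. At 3000 UMIs per cell, members were 15.2%, 17.9%, 40.0% and 56.8% of cells with at least 4 interferon-gamma targets (138, 28, 185 and 111 cells). They were 6.83%, 14.2%, 24.7% and 41.5% of cells with at least 4 genes of HSC identity. They were 2.82%, 0%, 10.1% and 5.26% of cells with at least 4 neutrophil genes (177, 44, 89 and 38 cells) and 1.92%, 0%, 9.68% and 4.35% of those with at least 4 basophil and mast cell genes (104, 35, 31 and 23 cells). Against 5.43%, 11.3%, 21.9% and 37.3% of all cells, the interferon-gamma group was above the pool in each pool and the neutrophil and basophil groups were below it. The exact interval held the share of the pool for interferon-gamma cells of young B (6.06% to 36.9%), neutrophil cells of young A (0.923% to 6.47%) and basophil and mast cells of young A (0.234% to 6.77%) and aged A (2.04% to 25.8%). With at least 2 genes, interferon-gamma cells held 8.3%, 14.3%, 27.1% and 45.0% members and neutrophil cells 5.0%, 7.1%, 21.6% and 31.8%. Low shares were not particular to the neutrophil and basophil groups. With at least 4 platelet and megakaryocyte genes (1.23%, 9.09%, 19.9% and 32.7%) or mitosis genes (2.09%, 1.40%, 14.7% and 22.6%) they also lay below the pool. Cells of one pool are not replicates, and no test was made between them.

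The aged pools also stood above the young ones within several such groups. Among cells with at least 2 genes of HSC identity 6.1%, 12.6%, 23.4% and 39.2% were members. Among those with at least 2 mitosis genes they were 3.0%, 3.2%, 11.6% and 24.9%. Among cells with at least 2 early lymphoid genes they were 3.4%, 6.4%, 30.3% and 41.7%, from 204, 47, 33 and 12 cells. For each the exact permutation p over 4 pools was 0.33, the smallest it can be. Among the few cells with at least 2 costimulatory genes the shares were 8.33%, 44.4%, 34.3% and 38.5% (24, 9, 35 and 13 cells), so the age groups overlapped. They overlapped too for T and NK cell genes (highest in young B, at 18.2% of 11 cells), for endothelial genes (2 to 13 cells) and for at least 4 macrophage genes (1 to 3 cells). For at least 2 B cell genes young A (22.2% of 9 cells) stood above aged A (11.1% of 18) and aged B (18.8% of 16). Young B had 0 such cells.

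**Figure D4:**
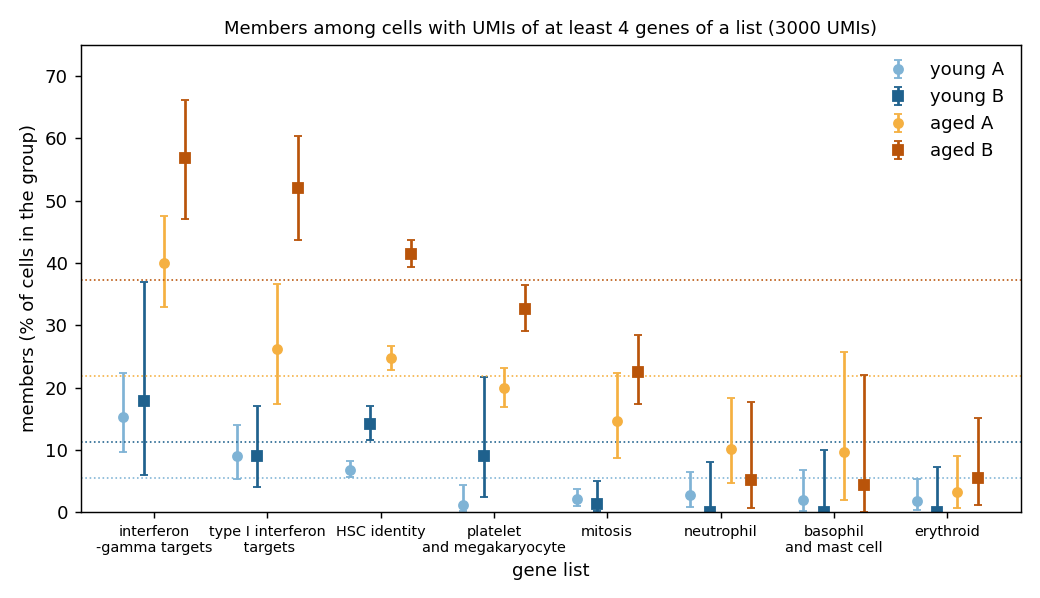
Members as a share of the cells with UMIs of at least 4 genes of a list, at 3000 UMIs per cell, for 8 lists and 4 pools, with exact 95% binomial intervals. Dotted lines give the share over all cells of each pool (5.43%, 11.3%, 21.9% and 37.3%). Cells with interferon-gamma targets or HSC identity genes lie above their pool's line in each pool. Cells with neutrophil, basophil and mast cell, erythroid, mitosis or platelet and megakaryocyte genes lie below it.

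Between aged and young members, compared with platform as a block, 62 genes were higher in aged members (0.531% of 11670 tested) and 11 were lower (0.0943%). In other cells 294 were higher (2.34% of 12581) and 82 lower (0.652%). These counts do not by themselves show a difference between the cell classes. Among the genes that the study names for age, 17 in all, 6 were higher and 2 lower in aged members. They are not independent evidence of the direction, since the study chose them on these cells.

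Several named genes stood higher in aged than in young members. Clu, which encodes clusterin, stood at 8.8 and 9.9 CPM in young and at 130 and 192 CPM in aged members (log2 4.05 ± 0.23, adjusted p = 0.014). Nupr1, a stress-induced regulator, stood at 18.0 and 22.7 CPM in young and 365 and 578 CPM in aged members (4.47 ± 0.26, adjusted p = 0.014). Selp, the adhesion receptor P-selectin, stood at 3.8, 6.1, 104 and 87.0 CPM and Vwf, which encodes von Willebrand factor, at 10.2, 10.1, 56.9 and 68.5 CPM. Selp and Vwf were higher by 4.25 ± 0.27 and 2.57 ± 0.21 (adjusted p = 0.014 and 0.019), the junction gene Jam2 by 2.33 ± 0.20 (adjusted p = 0.022) and Slamf1, the stem cell marker CD150, by 1.95 ± 0.20 (adjusted p = 0.035). For each, both aged pools lay above both young pools. Of 13 genes of HSC identity 1 was called, Slamf1, and all 13 were positive with a median of 0.47.

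By size of change the genes higher in aged members were Ighg2b, Igha, Cyr61, Matn4 and Sbspon. Ighg2b, an immunoglobulin heavy chain, had no UMI in members of either young pool and 60.6 and 1.6 CPM in aged pools A and B, at least 49.3-fold higher against a floor of 3 UMIs over the young members. Igha stood at 4.8, 0, 526 and 7.6 CPM, so both immunoglobulin genes rest mainly on aged pool A. In a fit without that pool, which also had no platform block, Igha was 1.77 (log2). Ighg2b was not called with DESeq2. Cyr61, an extracellular matrix protein, stood at 0.4, 0, 37.5 and 1.6 CPM, again highest in aged pool A. Matn4, which encodes the matrix protein matrilin-4, stood at 1.0, 1.1, 61.2 and 87.8 CPM (6.06 ± 0.28, adjusted p = 0.014) and Sbspon at 1.3, 0.5, 37.1 and 92.5 CPM (5.93 ± 0.51, adjusted p = 0.022). Matn4 and Sbspon were high in both aged pools.

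Lower in aged members were Gimap7, Cd48, Flt3, Plac8 and Ncf4. Gimap7, a GTPase of lymphoid cells, stood at 10.4 and 13.6 CPM in young and 1.6 and 1.0 CPM in aged members (-3.32 ± 0.36, adjusted p = 0.045). Cd48 stood at 51.2 and 37.7 CPM in young and 11.7 and 4.6 CPM in aged members (-2.61 ± 0.26, adjusted p = 0.032). Flt3, the receptor on early lymphoid-primed progenitors, stood at 43.9, 16.0, 12.2 and 2.3 CPM (-2.32 ± 0.27, adjusted p = 0.048), and Ncf4, a subunit of the phagocyte oxidase, at 22.1, 20.3, 6.5 and 5.1 CPM (-1.91 ± 0.21, adjusted p = 0.046). Both aged pools lay below both young pools for each, though for Flt3 by little between young pool B and aged pool A.

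The interferon and MHC class I lists showed no called gene between aged and young members by edgeR or DESeq2. Of 15 tested interferon-gamma targets 0 were called and 1 had an unadjusted p below 0.05, with a median of 0.30, and of 14 MHC class I genes 0 were called and 1 had such a p, with a median of 0.15. Of 13 tested type I interferon targets 0 were called and 0 had such a p, with a median of -0.03. The median over all genes was 0.02. Cd74 stood at 0.50 ± 0.24 (adjusted p = 0.53) and Ciita at 0.07 ± 0.41 (adjusted p = 0.97). Of 10 immediate early genes Atf3 and Nr4a1 were higher, all 10 were positive and the median was 1.81, and DESeq2 called 6. Junb stood at 136, 52.6, 476 and 124 CPM (1.49 ± 0.22, adjusted p = 0.075), higher on platform A in both ages, and young pool A lay above aged pool B. DNA replication genes had a median of -0.80, with 0 called by either tool and 8 of 10 at an unadjusted p below 0.05.

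These age calls rested on few pools. With aged pool B left out edgeR called 0 genes in members (702 at an unadjusted p below 0.05), and with aged pool A left out it called 14, all of which had been called before. Without the platform block 0 were called (635 at an unadjusted p below 0.05). DESeq2 called 166 genes, which included 72 of the 73.

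The age change differed between members and other cells for 7 genes (0.0539% of 12990 tested), 5 with a lower change in members and 2 with a higher one. Cd48 stood at 51.2, 37.7, 11.7 and 4.6 CPM in members and at 80.7, 78.9, 44.2 and 25.7 CPM in other cells. It fell by 2.61 on the log2 scale in members and by 1.28 in other cells (difference -1.37 ± 0.16, adjusted p = 0.0012). Plac8, a gene of lymphoid and myeloid priming, stood at 616, 532, 181 and 125 CPM in members and 1004, 1049, 447 and 412 CPM in other cells (difference -0.67 ± 0.10, adjusted p = 0.013). Both genes fell with age in both classes, and were lower in members than in other cells of every pool. The differences were -1.26 and -0.60 within platform A and -1.41 and -0.74 within platform B. DESeq2 did not call that of Plac8, and that of Cd48 was -0.87 at 3000 UMIs per cell and -0.60 without cycling cells, not called in either.

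Cd74 was higher in aged than in young cells of both classes by its levels, but by more in other cells. Its change was 0.50 in members and 1.28 in other cells (difference -0.79 ± 0.12, adjusted p = 0.0085), and the change in members was not called. The difference was -1.01 within platform A and -0.57 within platform B, and DESeq2 did not call it. Members and other cells are cut at the same number of genes seen from one range of MHC class II levels that was higher in aged cells, and the part of this cut in the Cd74 difference was not tested. Mt1, a metallothionein, stood at 27.6, 27.0, 280 and 372 CPM in members and 48.7, 40.5, 307 and 376 CPM in other cells (difference 0.65 ± 0.10, adjusted p = 0.0085). It was lower in members than in other cells in young pools and near them in aged pools. With cycling cells left out the differences for Plac8 and Mt1 turned to 0.02 and -0.21 and were not called, and that of Mt1 was not called without young pool A. The remaining genes Ighg2c, Cxcl10 and Spp1 were low in most groups.

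**Figure D5:**
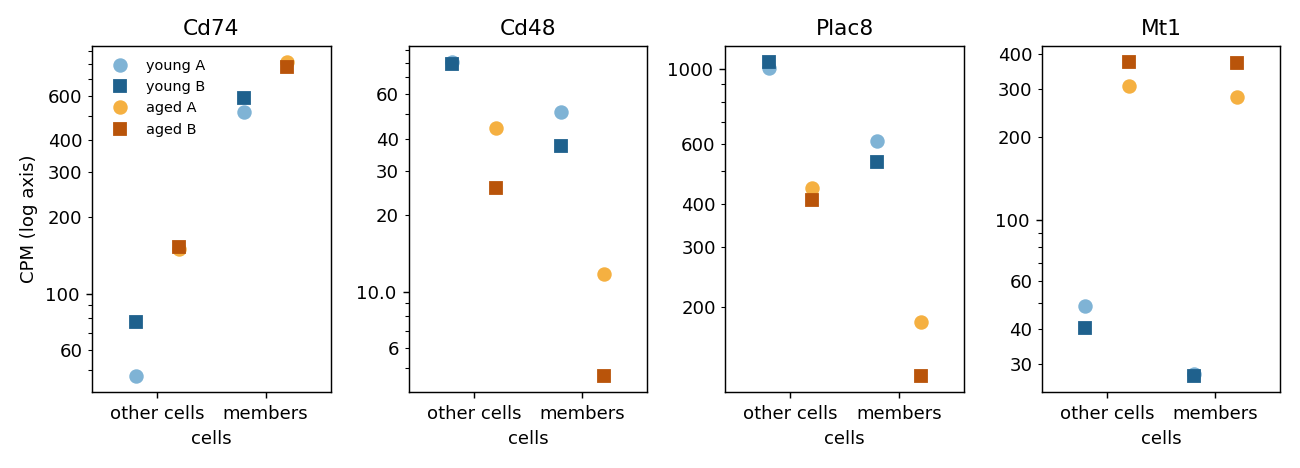
Level of Cd74, Cd48, Plac8 and Mt1 in other cells and in members of each pool, in CPM on a log axis, young pools to the left and aged pools to the right within each class, circles for platform A and squares for platform B. Cd48 and Plac8 fall further with age in members, Cd74 rises more in other cells, and Mt1 starts lower in young members (27.0 and 27.6 CPM) than in young other cells (40.5 and 48.7 CPM).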

How the data were processed

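The deposited matrices held raw UMI counts per gene and barcode, made by the authors with Cell Ranger 2.2.0 from 10x v2 libraries against GRCm38. No source used here names the annotation release. Titles and source names gave the age, since for 2 pools (B of the young, A of the aged) the free-text description names the opposite one. Barcodes whose log UMI count lay more than 2 SD from the mean of their pool were left out (242, 93, 139 and 177 of 5431, 2337, 3467 and 4331, young A, young B, aged A, aged B). Kept cells held 36446168, 16399999, 20788935 and 33286187 UMIs. The members and gene lists were chosen with earlier results of these data known.

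UMI counts of 28692 genes were summed per pool over members and over other cells, the 3 rule genes were dropped, and sums were tested with edgeR 4.0.16 (TMM, filterByExpr, quasi-likelihood test, Benjamini-Hochberg at 0.05) in R 4.3.3. Blocks were the pool for members against other cells and for the age difference between classes, and the platform letter for age. With 1 pool left out the age tests had no block. Young and aged pools of the same letter deviated together (correlation 0.541 over 11670 genes in members, 0.574 over 12581 in other cells), so the letters pair the pools. CPM are UMIs per 1000000 UMIs of the sum. DESeq2 1.42.0 was an alternative. Standard errors (after ±) were worked back from the log2 fold change and the F value of edgeR's test, which gives none itself. Thinning drew UMIs without replacement. Shares have exact Clopper-Pearson intervals and exact permutation tests over pools (scipy). Coordinates are from GENCODE M21 by gene identifier, and promoters from RefSeq, which gave 2 of the 3 rule genes. Doublets were not called.

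Named genes were all class II partners and regulators, up to 4 called genes with the largest mean CPM of each other list (or the most abundant one), the 10 most changed called genes of either direction between members and other cells that agreed in all pools and in UMI-matched cells, and the 5 largest in each direction for age in members and for the difference of age changes. Some genes that this rule names are not reported here. Sorting markers, defining markers of other cell types and genes that make up a list's count were named besides. Alternatives were DESeq2, no filter on low counts, all 3 rule genes, thinning, all barcodes, no block, each pool left out, UMI matching and other cell types left out. Leaving out cycling cells, leaving out other types without the plasma list and the requirement of 4 list genes were added after the data had been seen. The planned removal of other cell types used the plasma list, which most cells of aged pool A meet.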

Additional observations from a re-analysis of the deposited data

Results flagged for a closer look

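For 7 genes the change with age differed between members and other cells in edgeR's test of the membership by age term. The difference (members minus other cells, log2) was -1.37 for Cd48, -0.79 for Cd74, -0.67 for Plac8 and 0.65 for Mt1, whose levels are given above. It was -3.30 for Ighg2c, -2.37 for Cxcl10 and 3.07 for Spp1. Ighg2c had 0, 39, 79 and 0 UMIs in members and 0, 117, 1087 and 2 UMIs in other cells (young A, young B, aged A, aged B). It is an immunoglobulin heavy chain gene, and 1 group of cells, the other cells of aged pool A, held most of its UMIs. Cxcl10, a chemokine induced by interferon-gamma, stood at 25.1, 1.3, 2.5 and 4.5 CPM in members and 5.9, 0.9, 2.1 and 6.8 CPM in other cells. Its difference was not called with DESeq2. Spp1, which encodes osteopontin, stood at 5.4, 0.3, 3.7 and 2.7 CPM in members and 47.3, 4.3, 2.6 and 3.7 CPM in other cells, so the other cells of young pool A stood apart. Without young pool A the differences for Cxcl10 and Spp1 were not called, and neither was that for Ighg2c without young pool B or aged pool A. DESeq2 called 3 of the 7 genes in the same direction, the 2 with a higher change in members and 1 of the 5 with a lower one.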

How the results depend on the processing

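Members against other cells gave 678 calls. The count was 321 with DESeq2, 420 with all 3 genes required, 442 at 3000 UMIs per cell, 365 without cells of other types (573 where the plasma list was not used), 72 without cycling cells, 1160 with UMI matching and 389 to 532 with 1 pool left out. Without the pool block no gene was called (149 at an unadjusted p below 0.05). DESeq2 shared 321 and UMI matching 592 of the calls. The age test in members gave 73 calls, and 166 with DESeq2, 568 with no filter, 223 with all barcodes, 0 with no replicate block and 0 to 178 with 1 pool left out. In other cells it gave 376, and 593 with no filter, 110 at 3000 UMIs, 71 without cycling cells, 0 with no replicate block (893 at an unadjusted p below 0.05) and 0 to 227 with 1 pool left out (0 without aged pool B, 17 without aged pool A). The difference of age changes gave 7 calls, and 3 with DESeq2, 65 with no filter, 22 with all 3 genes, 32 at 3000 UMIs, 4 without cycling cells and 12 to 76 with 1 pool left out.

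The aged minus young share of members was 32.4 points, and 19.4 to 45.3 with 1 pool left out. At 3000 UMIs it was 21.3 points, 8.58 with all 3 genes and 31.4 with at least 1, and 13.5 to 29.0 with 1 pool left out. Some directions turned. In members against other cells Ighg2c stood at 2.25 with all barcodes and Ighg2b at 0.16 without other cell types (plasma list not used), and without cycling cells Birc5 stood at 0.34, Cdc20 at 0.091, Dusp1 at -0.0034, Pf4 at 0.10 and Top2a at 0.41, of which Birc5, Cdc20 and Top2a are mitosis genes that served to choose the cells left out, so that their values there are no test. Without cycling cells the age difference of Mt1 was -0.21 and of Plac8 0.016. Among cells with 2 or more genes of a list, the aged minus young share ran with 1 pool left out from -8.07 to 28.0 points for costimulatory ligands, from -1.86 to 16.3 for T and NK genes and from -43.8 to 6.25 for endothelial genes, and was -8.33 for macrophage genes with 4 genes required, all from few cells. The cause of the other changes was not tested. With 1 pool left out the lone pool was assumed to vary like the others. Genes under a few CPM rest on few UMIs.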
